A study of Arabidopsis thaliana with 5 samples.

Results

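The genes described here encode the sliding clamp of the replication fork, the replicative DNA polymerases and their partners in Arabidopsis thaliana: PCNA1 (AT1G07370), PCNA2 (AT2G29570), CTF18 (AT1G04730), ICU2 (AT5G67100), POLA2 (AT1G67630), TIL1 (AT1G08260), AT5G63960, POLD2 (AT2G42120) and LIG1 (AT1G08130). They were chosen by locus, as every non-control probe whose accession maps to these 9 loci, which gave 12 probes for 9 of the 25433 genes on the array. RNA came from cotyledons, the seed leaves, of 7-day-old seedlings kept in long days, and the groups were the ckg mutant line (3 samples) and the wild type Col-0 (2 samples). The titles call the mutant ckg and a genotype field calls it cgr. From outside knowledge the line was taken to carry a lesion in AT5G50915, the gene of a basic helix-loop-helix transcription factor; the kind of allele, its position and the number of independent lines are not given in the sources used here. The comparison asks how transcript levels in the mutant cotyledon differ from those in the wild type. Each Cy3-labelled RNA went on its own Agilent array, so each sample is 1 array and the number of arrays limits the precision.

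DNA replication uses a fixed set of machines. Polymerase alpha, with its primase, lays down the short primers from which new strands start; polymerase epsilon is known for extending the leading strand and polymerase delta the lagging strand. PCNA is a ring that encircles DNA and holds polymerases, ligase and chromatin factors on it; clamp loaders of the RFC type open and close the ring, and DNA ligase 1 seals the fragments of the lagging strand. Cotyledons grow after germination mainly by cell expansion, with rounds of DNA replication without division and with divisions in the stomatal lineage.

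Before the results, a few facts of the arrays. The 3 ckg arrays shared slide 2 (scan 2) and the 2 Col-0 arrays shared slide 1 (scan 1); the effects of slide and of genotype therefore cannot be told apart. The share of spots well above background was 68.4%, 70.0% and 52.4% on ckg replicates 1, 2 and 3, against 66.7% and 68.7% on Col-0 replicates 1 and 2. The gene taken as mutated, AT5G50915, was well above background on 0 of 3 ckg arrays and on 2 of 2 Col-0 arrays, and was at least 29.6-fold lower in ckg by the probe used. The mesophyll markers of a cotyledon were bright: all 8 (Rubisco small subunits, Rubisco activase and antenna proteins) were well above background on all 5 arrays. In whole cotyledons, fewer cells that make a transcript and less transcript per cell cannot be told apart.

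All 9 genes had lower signal in ckg, from 35.8% of the Col-0 level for PCNA1 to 72.8% for AT5G63960, where 51.3% of all genes tested had a difference below 0. In each of the 9, the highest ckg array was under the lowest Col-0 array. The clamp genes, the clamp loader subunit CTF18 and the polymerase alpha genes were more than 2-fold lower (2.11-fold to 2.79-fold). That tier depended on the signal used. With normexp on the raw signals CTF18, ICU2 and POLA2 had log2 differences of -0.97, -0.90 and -0.88, less than 2-fold. With the authors' series table they were at -1.07, -0.94 and -0.96. PCNA1 and PCNA2 stayed more than 2-fold lower in both. Polymerase epsilon, polymerase delta and ligase genes were 1.37-fold to 1.68-fold lower. The median log2 difference of the 9 was -1.08, against -0.01 over the 18122 genes tested. All 9 passed the filter on dim probes, each being well above background on both Col-0 arrays; 6 were also well above background on all 3 ckg arrays.

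The test of each gene came from limma fitted to all 18122 genes. None of the 9 passed a Benjamini-Hochberg adjusted p of 0.05, and neither did any other gene (0 of 18122, 0.0%); the adjusted p-values of the 9 in limma ran from 0.0725 (CTF18) to 0.247 (AT5G63960). At an unadjusted p under 0.05 in limma all 9 were lower in ckg, where 9.79% of all genes were lower at that threshold and 18.2% passed it in either direction. CTF18, ICU2 and TIL1 passed the filter on dim probes only through Col-0, where they were brighter. With signal well above background required on all 5 arrays, 6 of the 9 remained. All 6 were lower at that threshold, where 1513 of 15021 genes were, and their median was -0.89. The count of 9 was 5 without Col-0 replicate 1 (the clamp genes, CTF18 and the polymerase alpha genes) and 7 without Col-0 replicate 2. Those counts without a Col-0 array rest on 1 wild-type sample and were not set against all genes. The count was 7 with normexp, which lost POLD2 and LIG1, and 6 with the authors' series table, which lost TIL1 as well. In these settings 1918 and 1819 of 18122 genes were lower at that threshold. Complete separation of the arrays, ckg below Col-0, held for 22.6% of the genes with a value on every array, and the opposite order for 19.5%. An exact permutation test of a single gene has 10 splits of the arrays and cannot give a p below 0.1; it gave 0.1 for 8 of the 9 genes and 0.2 for POLD2.

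**Figure D1:**
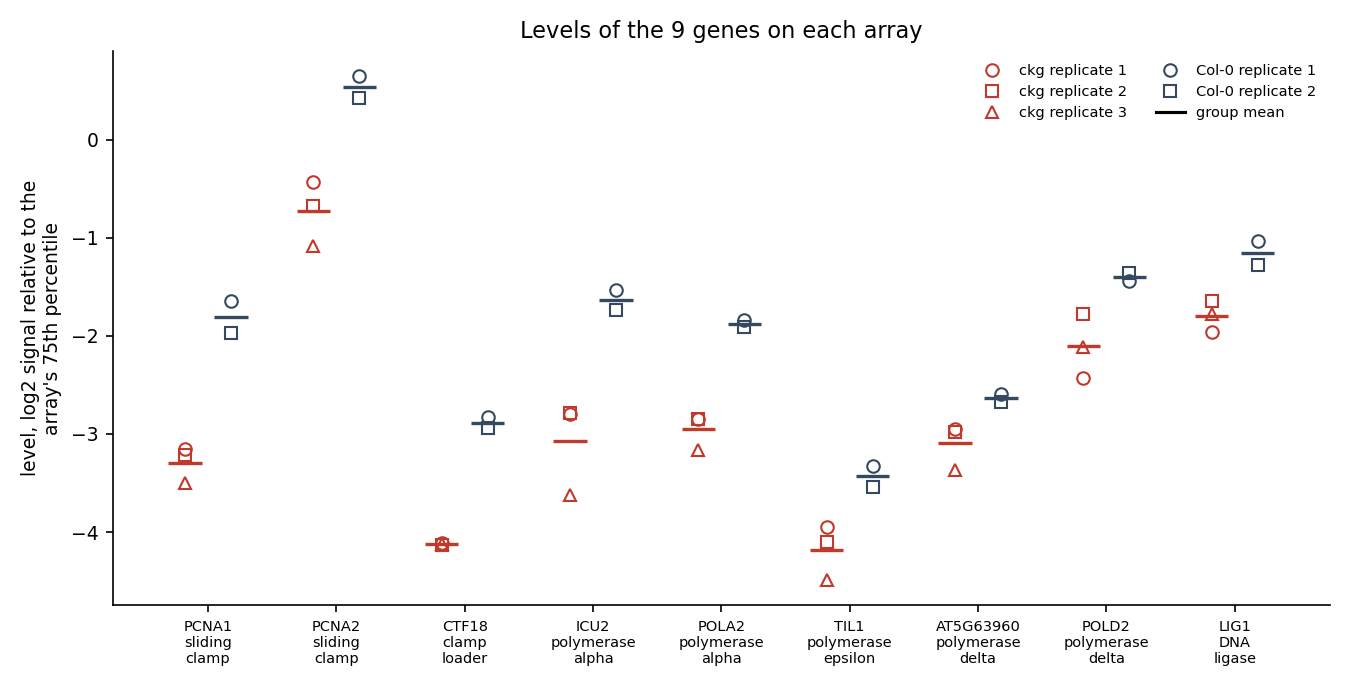
Level of each of the 9 genes on every array (points; log2 signal relative to the array's 75th percentile, vertical axis), with ckg in red left of Col-0 in dark blue and horizontal lines for the group means. In every gene the 3 ckg points lie below the 2 Col-0 points, with the widest gap for PCNA1 (1.18 log2 units between the nearest arrays) and the narrowest for AT5G63960 (0.27).

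PCNA1 and PCNA2 encode closely related forms of the clamp itself. PCNA1 had levels of -3.16, -3.22 and -3.50 in ckg, against -1.65 and -1.97 in Col-0 (log2 signal relative to the array's 75th percentile, the scale of all levels below). The ckg arrays lay close together and far under both Col-0 arrays. The log2 difference was -1.48 ± 0.17 (limma SE; adjusted p = 0.0847), a level 35.8% of that in Col-0. It ranked 47 among the 18122 genes, counted from the lowest difference.

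PCNA2 had levels of -0.43, -0.67 and -1.08 in ckg, against 0.65 and 0.42 in Col-0. The groups did not overlap, and ckg replicate 3 was the lowest array. For PCNA2 the log2 difference was -1.26 ± 0.22 (limma SE; adjusted p = 0.116). The mean level was -0.73 ± 0.33 (SD, n = 3) in ckg and 0.54 ± 0.16 (SD, n = 2) in Col-0. The difference of PCNA1 minus that of PCNA2 was -0.22 log2 units (exact permutation p = 0.2, where 0.1 is the smallest possible). This gap was -2.73, -2.55 and -2.42 in ckg, against -2.30 and -2.40 in Col-0, so the groups were separated by little. Each gene had 1 probe, and how much either probe binds the paralog's transcript was not tested.

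CTF18 encodes the large subunit of an alternative clamp loader, known in yeast and animals for work at the leading strand and in sister chromatid cohesion. Its levels were -4.11, -4.13 and -4.12 in ckg, against -2.83 and -2.94 in Col-0. It had the tightest ckg arrays of the 9 genes (SD 0.01, n = 3), in the processed signal. The ratio of that signal to the raw spot median minus local background was 0.66, 0.64 and 0.55 in ckg, against 0.77 and 0.71 in Col-0. With the authors' series table the CTF18 difference was -1.07 ± 0.18 (limma SE). For CTF18 the log2 difference was -1.24 ± 0.10 (limma SE; adjusted p = 0.0725), and CTF18 ranked 10 by p among all genes tested. On ckg replicate 3 the CTF18 spot was not well above background. The other CTF18 probe was dim, well above background on 1 of the 5 arrays, and gave -0.51; with the mean of both probes the difference was -0.87 and the unadjusted p in limma 0.0814.

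Polymerase alpha was measured through its catalytic subunit, ICU2 (INCURVATA2, named for the curled leaves of its mutant), and its regulatory subunit, POLA2. ICU2 had levels of -2.80, -2.79 and -3.62 in ckg, against -1.54 and -1.73 in Col-0. The groups did not overlap, and ckg replicate 3 lay well under the other ckg arrays; its spot was not well above background there. The log2 difference was -1.43 ± 0.29 (limma SE; adjusted p = 0.136), and -1.16 without ckg replicate 3.

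The low ICU2 value of that array came with the software's processing of the spot. The raw spot median minus local background of ICU2 was 330, 344.5 and 320 in ckg, against 660 and 523 in Col-0, so the ckg arrays were alike before processing. The ratio of processed to raw net signal was 1.06, 1.1 and 0.56 in ckg, against 1.31 and 1.22 in Col-0. With normexp on the raw signals, in place of the processed signal, the ICU2 difference was -0.90, and with the authors' series table it was -0.94, both below 0.

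POLA2 had levels of -2.85, -2.85 and -3.16 in ckg, against -1.84 and -1.91 in Col-0. The Col-0 arrays were nearly equal and the ckg arrays about 1 log2 unit lower. For POLA2 the log2 difference was -1.08 ± 0.14 (limma SE; adjusted p = 0.0953). The other POLA2 probe gave a difference of -1.14, but -0.61 with normexp and -0.79 with the authors' series table. Its raw spot median minus local background was 192, 207.5 and 157.5 in ckg, against 388.5 and 177 in Col-0. These groups overlapped, but raw signals are not scaled between arrays. The arrays' 75th percentile of processed signal ran from 2115 (Col-0 replicate 2) to 2607 (ckg replicate 2). Overlap after scaling the raw signals was not tested. The spot of that probe on ckg replicate 3 was not well above background. The difference of ICU2 minus that of POLA2 was -0.35 log2 units (exact permutation p = 0.3).

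TIL1 (TILTED1, also known as ESD7 and ABO4) is the catalytic subunit of polymerase epsilon. Its levels were -3.95, -4.10 and -4.49 in ckg, against -3.33 and -3.54 in Col-0. The groups did not overlap, though the nearest arrays lay only 0.41 log2 units apart. The log2 difference was -0.75 ± 0.19 (limma SE; adjusted p = 0.170), a level 59.5% of that in Col-0, and -0.49 with normexp. The spot was not well above background on ckg replicate 3. As for ICU2, the ratio of processed to raw net signal was lowest there: 0.71, 0.71 and 0.52 in ckg, against 0.79 and 0.79 in Col-0. How much the probe binds the transcript of its paralog TIL2 was not tested.

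Polymerase delta was represented by AT5G63960, its catalytic subunit, and POLD2, its small subunit. AT5G63960 had levels of -2.94, -2.98 and -3.37 in ckg, against -2.60 and -2.68 in Col-0. The groups did not overlap. Its difference was the nearest to 0 of the 9 genes, with a log2 difference of -0.46 ± 0.16 (limma SE; adjusted p = 0.247), and -0.32 without ckg replicate 3. It ranked 1479 of 18122, counted from the lowest difference, where POLA2 ranked 143.

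POLD2 had levels of -2.43, -1.78 and -2.11 in ckg, against -1.44 and -1.36 in Col-0. Here ckg replicate 1, not replicate 3, was the lowest array, and the ckg arrays were spread more widely than those of most of the 9 genes (SD 0.33, n = 3). The log2 difference was -0.71 ± 0.21 (limma SE; adjusted p = 0.198). It was -0.27 with normexp and -0.32 with the authors' series table. The raw spot median minus local background of POLD2 was 403, 639 and 464 in ckg, against 625.5 and 494 in Col-0. Without scaling between arrays, these groups overlapped and ckg replicate 2 was the highest array.

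LIG1 encodes the ligase that joins the fragments of the lagging strand. The LIG1 probe used had levels of -1.96, -1.65 and -1.77 in ckg, against -1.03 and -1.28 in Col-0. The groups did not overlap, and the log2 difference was -0.64 ± 0.15 (limma SE; adjusted p = 0.153). With normexp this probe gave -0.12 and with the authors' series table -0.13. Its raw spot median minus local background was 729, 925 and 759 in ckg, against 1144 and 579.5 in Col-0. Without scaling between arrays, the groups overlapped in the raw signal and Col-0 replicate 2 was the lowest array.

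The other LIG1 probe did not depend on the signal column. Its raw net signal was 795, 929 and 888 in ckg, against 1345 and 1072.5 in Col-0, and these groups did not overlap. The log2 difference of this LIG1 probe was -0.56 with the processed signal, -0.54 with normexp and -0.55 with the authors' series table.

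**Figure D2:**
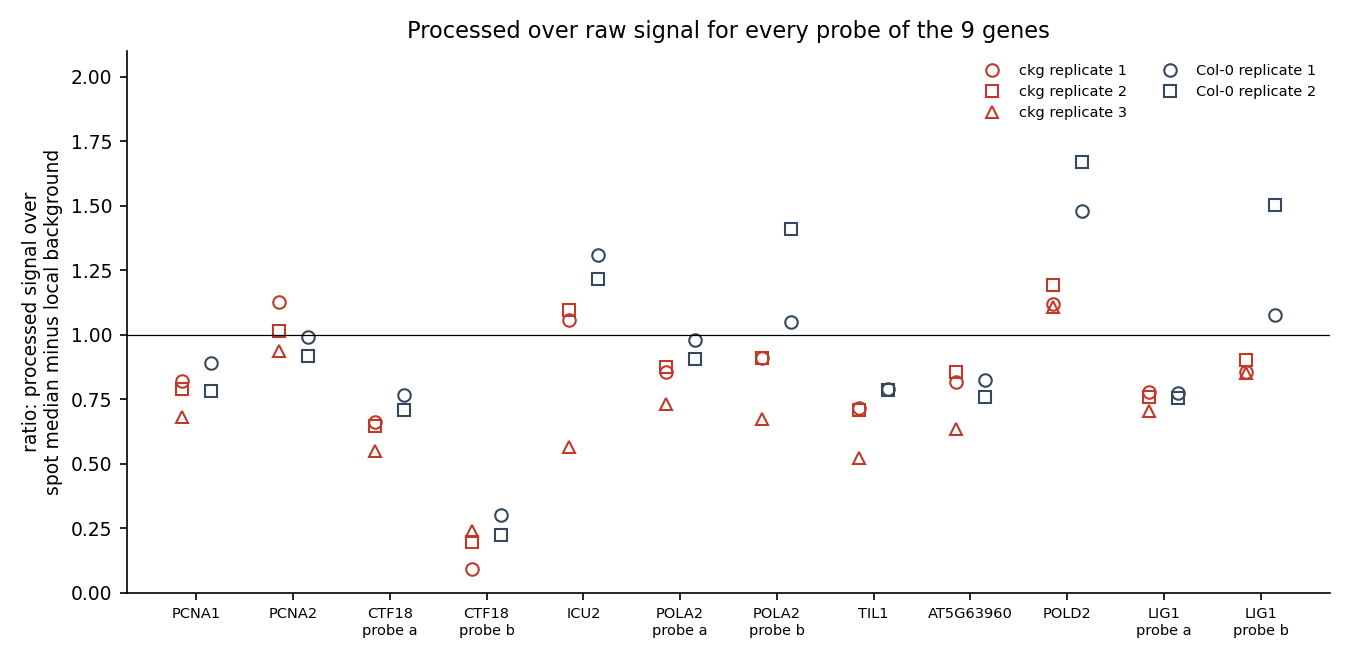
Ratio of the processed signal to the raw spot median minus local background (vertical axis, linear) for the 12 probes on every array, with ckg in red left of Col-0 in dark blue; for LIG1, probe b is the probe used. A ratio that differs between the groups moves the log2 difference: for LIG1 probe b it was 0.86, 0.90 and 0.85 in ckg and 1.07 and 1.50 in Col-0, while for LIG1 probe a it was 0.78, 0.76 and 0.71 in ckg and 0.77 and 0.75 in Col-0.

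Put in order, the log2 differences ran PCNA1, ICU2, PCNA2, CTF18, POLA2, TIL1, POLD2, LIG1 and AT5G63960, from the lowest to the one nearest 0. Over the 36 pairs of genes, the within-array gap of a pair separated ckg from Col-0 in 22 and overlapped in 14. The exact permutation test cannot go below 0.1 for a pair, so no pair could pass 0.05; its smallest Benjamini-Hochberg adjusted value over the 36 pairs was 0.277, and the order is a description. Neighbours in the order such as TIL1 and POLD2 (gap -0.04, exact permutation p = 1.0) and POLD2 and LIG1 (gap -0.07, exact permutation p = 0.7) did not differ beyond their spread. The gap of PCNA1 to AT5G63960 was -1.02 log2 units and that of POLA2 to AT5G63960 -0.62; both gaps separated the groups, at the lower limit of the exact permutation test (p = 0.1).

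**Figure D3:**
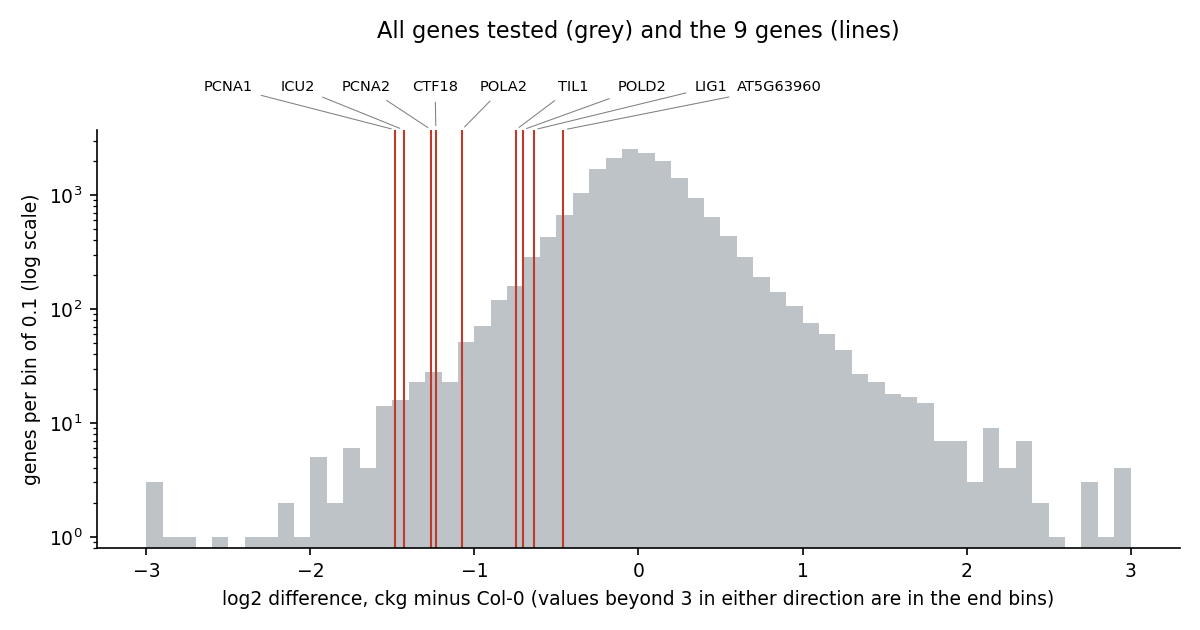
Histogram of the log2 difference, ckg minus Col-0 (horizontal axis), of the 18122 genes tested (grey bars, log count axis), with a red line at each of the 9 genes. The 5 genes from PCNA1 to POLA2 lie beyond -1, where 183 genes (1.01%) were found, and the other 4 lie between -0.75 and -0.46.

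The rest of the fork was followed in a list of 27 further genes, of which 26 were measured. No member passed the limma adjusted p of 0.05. At an unadjusted p under 0.05 in limma, 13 of the 26 were lower in ckg and 0 higher, where 9.79% and 8.38% of all genes were lower and higher. The list median was -0.45 against -0.01 over all genes. Among the 13, POLA3, PSF2, AT5G26680 and ATXR6 were not well above background on every ckg array, so dim ckg spots enter the count. With signal well above background required on all 5 arrays, 9 of 18 passed that threshold. Their list median was then -0.32, and 1513 of 15021 genes were lower at that threshold. The primase genes, partners of polymerase alpha, were both lower: POLA3 by a log2 difference of -1.30 ± 0.19 and EMB2813, the large primase subunit, of -0.92 ± 0.12 (limma SE; adjusted p = 0.1004 and 0.0917). POLA3 had levels of -3.39, -3.16 and -3.50 in ckg, against -1.80 and -2.29 in Col-0, without overlap. The POLA3 spot on ckg replicate 3 was not well above background.

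None of the other 4 polymerase subunits had an unadjusted p under 0.05 in limma. DPB2, the second subunit of polymerase epsilon, had a log2 difference of -0.49 ± 0.41 (limma SE; adjusted p = 0.555), with levels of -4.61, -4.54 and -3.36 in ckg against -3.61 and -3.75 in Col-0, which overlapped. The DPB2 spot on ckg replicate 3 was not well above background, and without that array the difference was -0.89. TIL2, the paralog of TIL1, lay on the other side of 0 at 0.45 ± 0.36 (limma SE; adjusted p = 0.536), and was well above background on 1 of 3 ckg arrays. POLD3 and POLD4 of polymerase delta were at -0.41 ± 0.23 and -0.14 ± 0.10 (limma SE; adjusted p = 0.389 and 0.492).

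Of the 7 clamp loader genes besides CTF18, 3 were lower in ckg at an unadjusted p under 0.05 in limma, against 9.79% of all genes. The standard loader places PCNA on DNA. RFC2 was at -0.36 ± 0.11 and EMB2775, another RFC subunit, at -0.29 ± 0.11 (limma SE; adjusted p = 0.208 and 0.269); EMB2775 was at -0.19 with normexp. RFC3, RFC4 and RFC1 were at -0.27 ± 0.15, -0.10 ± 0.10 and 0.11 ± 0.12 (limma SE; adjusted p of 0.379, 0.622 and 0.649). The other RFC4 probe gave -0.46, and with the mean of both RFC4 was at -0.28, with an unadjusted p of 0.0451 in limma. RFC1 is the large subunit that CTF18 replaces in the alternative loader; its levels were -2.02, -1.95 and -1.80 in ckg, against -1.97 and -2.09 in Col-0, with overlap. The locus AT2G44580, also in the clamp loader list, was at -0.88 ± 0.12 (limma SE; adjusted p = 0.0969); its other probe, well above background on all 5 arrays, gave -0.44.

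All 6 genes of fork progression had differences below 0 (51.3% of all genes), 4 of them at an unadjusted p under 0.05 in limma (9.79% of all genes in that direction). CDC45 and the GINS complex work with the MCM helicase, which opens the DNA ahead of the polymerases. CDC45 was at -1.06 ± 0.15 and the GINS subunit SLD5 at -0.92 ± 0.10 (limma SE; adjusted p = 0.0961 and 0.0819), while SLD5 was at 0.15 with the mean of its probes. The other SLD5 probe had levels of -3.35, -2.82 and -3.12 in ckg, against -2.24 and -6.41 in Col-0, and its spot on Col-0 replicate 2 was not well above background. The locus AT3G42660 was at -1.05 ± 0.11 (limma SE; adjusted p = 0.0808). The GINS subunits PSF2, PSF1 and PSF3 were at -0.92 ± 0.18, -0.34 ± 0.17 and -0.19 ± 0.17 (limma SE); PSF2 was at -0.39 with normexp and -0.57 with the series table.

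Among factors that act on or behind the clamp, MET1, the maintenance DNA methyltransferase, was at -0.70 ± 0.12 and TOPII, a type II topoisomerase, at -0.70 ± 0.11 (limma SE; adjusted p = 0.115 and 0.106). TOPII was at -0.23 with normexp and -0.32 with the series table. ATXR6 and ATXR5, histone methyltransferases that bind PCNA, were at -1.60 ± 0.49 and 0.06 ± 0.19 (limma SE; adjusted p = 0.204 and 0.896). ATXR6 was dim, well above background on 1 of 3 ckg arrays and 2 of 2 Col-0 arrays, and at -0.70 with normexp. The loci AT5G26680 and AT2G25100 were at -0.69 ± 0.26 and 0.002 ± 0.14 (limma SE), the first at -0.39 with normexp. TOP1ALPHA, a type I topoisomerase, was at 1.36 ± 0.80 (limma SE), and Col-0 replicate 2 stood apart: its levels were 0.87, 0.88 and 1.01 in ckg, against 0.97 and -1.85 in Col-0, and the difference was -0.05 without Col-0 replicate 2.

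**Figure D4:**
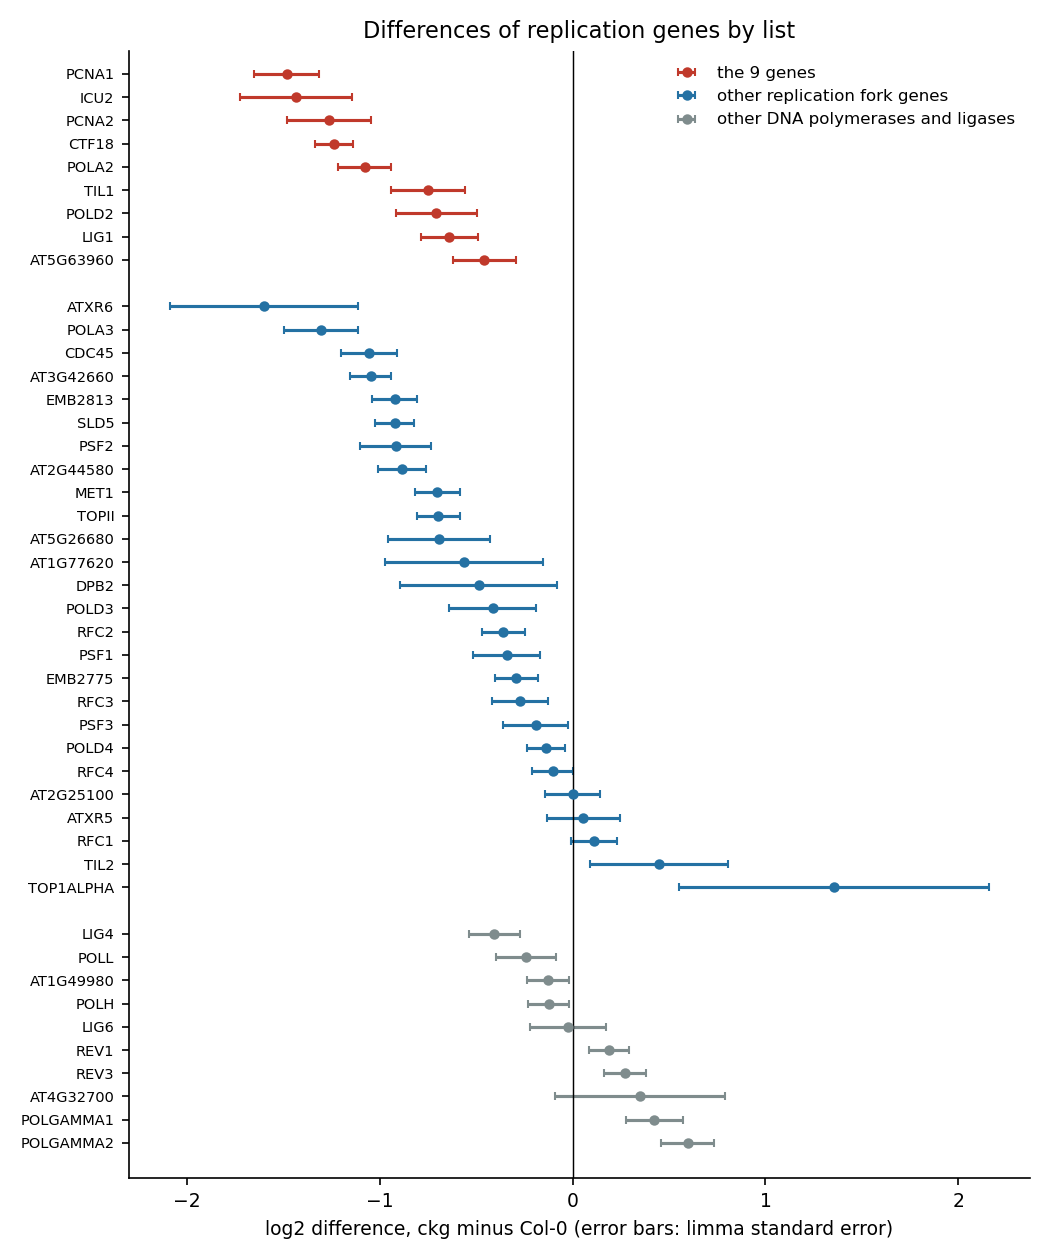
Log2 difference, ckg minus Col-0 (horizontal axis), with limma standard errors as bars, for the 9 genes (red), 26 other replication fork genes (blue) and 10 DNA polymerases and ligases from outside the fork (grey). All 9 red points and 21 of the 26 blue points lie below 0, while the grey points lie 5 on each side.

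DNA polymerases and ligases that serve repair, damage bypass or the organelles were taken as the nearest genes outside the fork. Of 10 measured, 5 were below and 5 above Col-0, with a median log2 difference of 0.08; 1 was lower and 2 were higher at an unadjusted p under 0.05 in limma, where 9.79% and 8.38% of all genes were, and 0 passed the adjusted p of 0.05. POLGAMMA2 and POLGAMMA1, DNA polymerases of plastids and mitochondria, were at 0.60 ± 0.14 and 0.42 ± 0.15 (limma SE; adjusted p = 0.153 and 0.238). POLGAMMA2 had levels of 0.78, 0.98 and 1.1 in ckg, against 0.44 and 0.27 in Col-0. The second probes gave 0.17 for POLGAMMA2, with overlapping arrays, and 0.26 for POLGAMMA1. With the mean of probes POLGAMMA2 was at 0.38 and POLGAMMA1 at 0.34. The ligases were read side by side: LIG4 of end joining was at -0.41 ± 0.13 and LIG6 at -0.02 ± 0.20, beside -0.64 ± 0.15 for LIG1 (limma SE). The sign of LIG4 turned with normexp and with the series table, to 0.15 in both.

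The 5 tested genes outside these lists whose centred levels lay nearest to those of PCNA1 over the 5 arrays were MCM10, AT3G12170, TUB1, ABAP1 and ATIM. Their root mean square distance to PCNA1 was 0.07, 0.08, 0.11, 0.12 and 0.12 log2 units, against a median of 0.76 over all genes. Because they were picked on these same levels, a difference like that of PCNA1 follows from the choice. Their p-values therefore test nothing further. MCM10 had levels of -5.39, -5.49 and -5.79 in ckg, against -4.03 and -4.40 in Col-0, and a log2 difference of -1.34 ± 0.18 (limma SE; adjusted p = 0.0961). ATIM, the TIMELESS gene, had levels of -4.12, -4.22 and -4.18 in ckg, against -2.51 and -2.74 in Col-0.

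Markers of other cells were set beside these differences. Of 12 shoot apex markers 3 were tested, with differences of -0.38 (KNAT2), -0.08 (CLV1) and -0.001 (ANT). KNAT2 was well above background on 1 of 3 ckg arrays, and without ckg replicate 1 its difference was 0.43. The summed signal of the list, on the linear scale with the 75th percentile as 1, was 3.01 to 3.19 in ckg and 3.13 to 3.30 in Col-0. Most of that sum was CLV1, with levels of 1.53, 1.58 and 1.44 in ckg, against 1.64 and 1.55 in Col-0. The sum therefore says little about the other apex markers. On all 5 arrays, STM, WUS, CLV3, UFO, KNAT1 and CUC1 lacked signal well above background. CUC3, named after its values were seen, was well above background on 2 of 3 ckg arrays and 0 of 2 Col-0 arrays. Its levels were -6.17, -6.06 and -5.74 in ckg, against -7.46 and -7.25 in Col-0. The highest of these, on ckg replicate 3, was not well above background, so no fold is given. Of 7 root markers 2 were tested, at 0.29 (COBL9) and 0.25 (CASP2), with sums of 0.11, 0.10 and 0.15 in ckg, against 0.07 and 0.10 in Col-0. No spot of ckg replicate 3, which had the highest sum, had a processed signal under 31.0, while the other 4 arrays reached down to between 2.68 and 4.01, and none of the 7 root probes was well above background there. The 9 stomatal lineage markers had sums of 2.17 to 2.48 in ckg and 2.22 to 2.69 in Col-0; the protease gene SDD1 was at -0.63 ± 0.10 and the transcription factor gene MUTE, which acts late in the lineage, at -0.76 ± 0.19 (limma SE; adjusted p = 0.104 and 0.165). With normexp MUTE was at -0.30. Of the 9 differences 6 were below 0 and 3 above, with a median of -0.13; those above were TMM (0.52), EPF2 (0.46) and SPCH (0.01). Their part in the differences of the 9 genes was not tested. The summed signal of the 9 genes themselves was 1.48 to 1.87 in ckg and 3.34 to 3.78 in Col-0. That of the 8 mesophyll markers was 749.9 to 915.5 in ckg and 815.8 to 837.6 in Col-0, a sum carried by the brightest probes. Among the 8 mesophyll differences 4 were below 0 and 4 above, with a median of -0.04. Those below were LHCB2.1 (-0.57), LHCB3 (-0.31), RBCS1A (-0.24) and LHCA1 (-0.14). With the mean of probes the antenna genes LHCB2.1, LHCB3 and LHCA1 were at -0.61, -0.67 and -0.51.

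**Figure D5:**
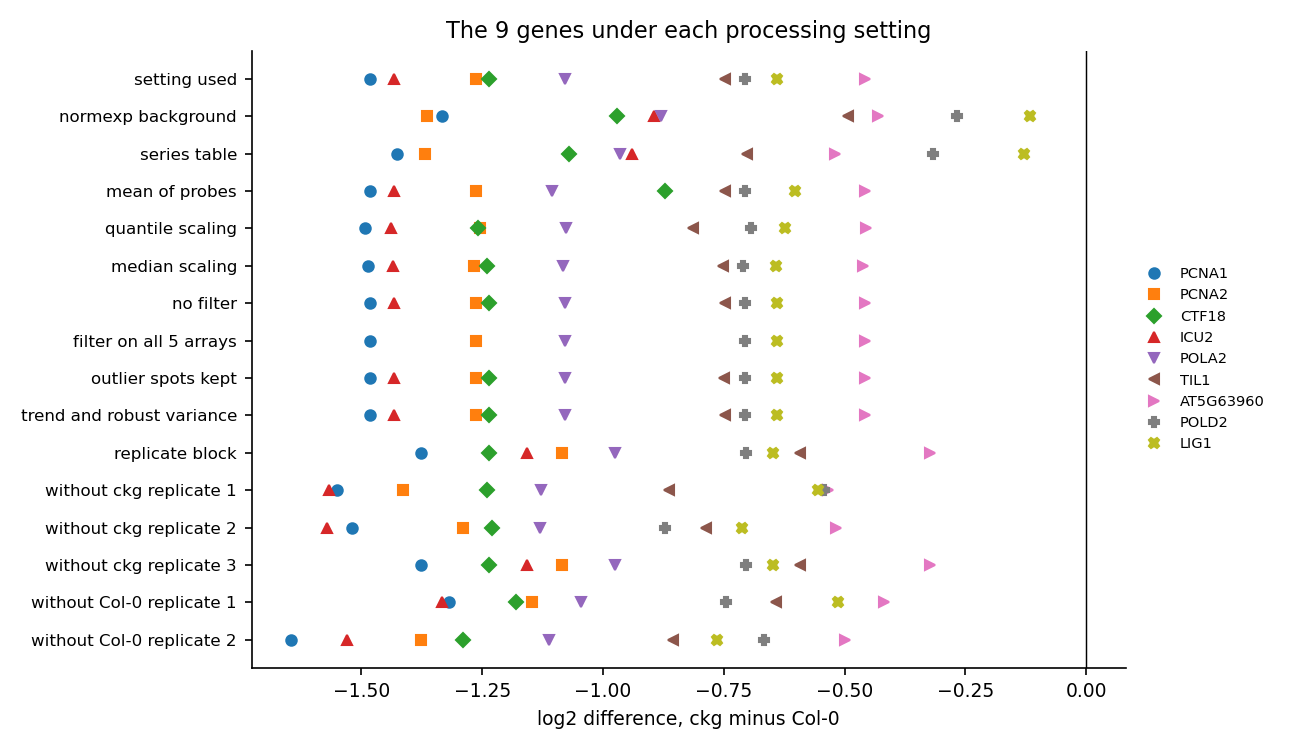
Log2 difference, ckg minus Col-0 (horizontal axis), of each of the 9 genes (symbols) under the setting used and 15 other processing settings (rows). All points lie below 0, PCNA1 between -1.65 and -1.32, and the points nearest 0 are those of LIG1 with normexp (-0.12) and with the series table (-0.13). The filter and variance rows repeat the differences of the setting used by construction.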

How the data were processed

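Per the file headers, the authors read the scanner images with Agilent Feature Extraction 10.7.1.1; the deposited processed intensity is background-subtracted and spatially detrended, with no scaling between arrays. Other deposited columns were the raw median intensity of spot and local background and flags of 0 or 1 for signal well above background, outliers and saturation (0 spots). The authors' deposited series table holds log2 levels of unstated normalisation; set against the raw median intensity array by array, their order was identical (Spearman correlation 1), and each array's median was 8.41. It served as an alternative. Per the labels' protocols, total RNA was extracted with TRIzol.

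Levels are log2 processed intensities from which the log2 of the array's 75th percentile was subtracted; outlier spots (35 to 197 per array) were left out. Accessions were matched to loci through the TAIR10.1 gene table (34358 of 43603 probes). No coordinates are given, since the builds are not shown to be the same. The probe with the highest mean signal stood for a gene. The dim-probe filter kept genes with a probe flagged well above background throughout at least 1 group. The difference, ckg minus Col-0, was fitted with limma 3.58.1 in R 4.3.3 (lmFit, eBayes, two-sided, Benjamini-Hochberg over 18122 genes, threshold 0.05; 3 residual degrees of freedom), tested on simulated data. "At least" folds replace the dim signal on each array by the lowest spot signal flagged well above background there, unless its own is higher. The series' design text describes the samples as biological replicates. The 9 genes, the lists and the naming rule (the 9 genes, the smallest p-values and opposite signs in each list, and the genes nearest to PCNA1) were chosen with earlier results of these data known; further members of the fork, polymerase and marker lists were named after their values were seen.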

Additional observations from a re-analysis of the deposited data

How the results depend on the processing

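All 132 differences of the 9 genes under 15 alternatives were below 0, and 0 passed the limma adjusted p of 0.05. Many of the 132 repeat another value by construction. The filter and variance settings leave a gene's difference unchanged, as does the mean of probes for a gene with 1 probe. The replicate block repeats the differences without ckg replicate 3. Without ckg replicate 3 all 9 stayed at an unadjusted p under 0.05, where 2295 of 18121 genes were lower at that threshold. Without ckg replicate 1 or 2, 9 and 8 of them did, where 1715 of 18120 and 1348 of 18122 genes were lower. A fit without a Col-0 array leaves 1 wild-type sample. The median of the 9 was then -1.05 (without replicate 1) or -1.11 (without replicate 2). The count was 7 with normexp and 6 with the series table, where 1918 and 1819 of 18122 genes were lower. Requiring signal well above background on each of the 5 arrays kept 6 of the 9 genes. All 6 were at an unadjusted p under 0.05, where 1513 of 15021 genes were lower, and their median was -0.89. The median of the 9 was -0.87 with the mean of probes, where the dim CTF18 probe enters, and the median of the other fork genes was -0.23 with normexp and -0.28 with the series table; the cause of these was not tested. Genes past the adjusted p numbered 3 with normexp, 4 with the trend and robust variance, 3 with the series table and 0 to 3 when 1 ckg array was left out. Labels share replicate numbers 1 and 2 between the groups, but same-numbered arrays deviated with correlations of only -0.09 and -0.10, so the numbers were not taken to pair samples. With a replicate block, 8 of the 9 genes were at an unadjusted p under 0.05, where 1555 of 18122 genes were lower. The median of the 9 was then -0.98, the value without ckg replicate 3, since that number is in ckg alone. Slide as a block was not run, because no slide holds both groups. Signal near background limits CTF18, ICU2 and TIL1 on ckg replicate 3.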

Other observations

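TMM, a receptor-like protein gene of stomatal patterning chosen after its values were seen, had levels of -1.83, -1.04 and -1.07 in ckg, against -2.87 and -0.80 in Col-0. Its log2 difference was 0.52, but it was -0.51 when Col-0 replicate 1 was left out and 1.56 when Col-0 replicate 2 was left out.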
